A study of Homo sapiens with 4 samples.

Results

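The genes described here build and run the DNA replication fork: 54 human genes whose products license origins, unwind DNA, copy it and process the new strands. The rule that chose them is a list of names by function and uses no measured value, though earlier results of these data were known. They were matched by the symbol in the deposited rates table or by the GENCODE symbol of the identifier. All 54 were found among the 60279 human gene identifiers counted, and all 54 passed the filter on low counts with 17322 genes in all. The genes fall into 8 roles: 9 licensing genes, 12 helicase genes, 4 origin firing genes, 10 polymerase genes, 8 genes of the sliding clamp, its loader and Okazaki fragment processing, 3 genes of replication protein A (RPA), 4 fork protection genes and 4 genes of chromatin assembly and maintenance methylation behind the fork.

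Labelled RNA was measured by transient transcriptome sequencing (TT-seq) in K562, an established line from chronic myeloid leukaemia that grows in suspension and has erythroid features. Cells of this 1 line, with no drug or genetic change named in the labels, took up 1 mM 4-thiouridine for either 5 or 15 min, and each of these label times has 2 libraries. Total RNA was mixed with RNA of Drosophila S2 cells, sheared, biotinylated at its thiol groups and enriched, so reads of fly genes serve as a spike-in standard. Whether replicate libraries stem from separate cultures is not stated in the labels. P-values here therefore reflect the spread among 4 libraries alone, and that spread may be technical.

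Replication starts when the origin recognition complex (ORC), CDC6 and CDT1 load the MCM ring onto DNA in G1 phase. In S phase the kinase CDC7 with its partner DBF4, together with other firing factors, turns the ring into the active helicase, which holds CDC45 and the GINS complex. Behind it DNA polymerase alpha with primase lays down primers, polymerases epsilon and delta extend the leading and lagging strands on the PCNA clamp, and RPA coats the single strand. Many of these genes are known targets of E2F factors and are transcribed around the G1 to S transition. K562 cultures cycle without synchrony, and in bulk libraries fewer cells that transcribe a gene and less RNA per cell cannot be told apart.

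The human libraries held 4339981 to 5051370 reads and the fly libraries 308978 to 897018 reads. The 54 replication genes had 129 to 2597 reads each per library, and together 0.678% of human reads in both 5 min libraries and 0.618% and 0.623% in the 15 min libraries. All 8 erythroid and K562 markers checked, among them HBG2 and GATA1, were above 0 in the libraries. Of 16 markers of T cells, B cells, monocytes, fibroblasts and epithelial cells, 13 stayed under 10 reads in each library and 3 of these (CD8A, MS4A1 and KRT5) were at 0. The 3 others were CD3D, CSF1R and EPCAM, of which EPCAM reached 279 reads.

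To show what lies upstream of genes that behaved differently in the tests below, the 150 bases before the RefSeq start site (GRCh38.p14) are printed for 4 members. The MCM6 stretch is chr2:135876444-135876593 on the minus strand, the POLA1 stretch is chrX:24693768-24693917 on the plus strand, the TIMELESS stretch is chr12:56449427-56449576 on the minus strand and the ORC6 stretch is chr16:46689509-46689658 on the plus strand. Each is written 5′ to 3′ in the direction of its gene, and capitals mark letters of the E2F motif searched here, which were TTTGGCGC, TTTCGCGC, TTTCCCGC and TTTGCCGC on either strand.
MCM6: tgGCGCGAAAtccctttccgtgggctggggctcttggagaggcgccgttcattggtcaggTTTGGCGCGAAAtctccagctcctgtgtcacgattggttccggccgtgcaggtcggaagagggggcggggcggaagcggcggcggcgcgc
POLA1: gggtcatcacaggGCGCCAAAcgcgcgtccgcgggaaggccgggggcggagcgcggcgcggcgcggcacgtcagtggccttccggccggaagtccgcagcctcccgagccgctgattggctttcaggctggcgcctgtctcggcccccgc
TIMELESS: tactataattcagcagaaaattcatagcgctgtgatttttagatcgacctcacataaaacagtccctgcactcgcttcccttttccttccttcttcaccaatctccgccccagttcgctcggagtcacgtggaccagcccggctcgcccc
ORC6: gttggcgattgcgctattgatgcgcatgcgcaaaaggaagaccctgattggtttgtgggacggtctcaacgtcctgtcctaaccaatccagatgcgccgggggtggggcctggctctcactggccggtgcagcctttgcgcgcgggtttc
The MCM6 stretch held 3 matches, of which the last 2 overlap each other, the POLA1 stretch held 1, and those of TIMELESS and ORC6 held none. In the reference windows, which run from 250 bases before to 50 bases after a start, 47 of the 54 genes were matched. The E2F letters stood in 24 of these 47 genes (51.1%), against 6.71% of the 9195 matched protein-coding genes tested and 3.99% of all 27305 genes in the table. They stood in 8 of 9 matched helicase genes, 4 of 9 licensing genes, 4 of 9 polymerase genes and 3 of 8 clamp and loader genes. CCAAT on either strand, the letters of the NF-Y motif, stood in 27 of 47 (57.4%) against 43.4% of the coding genes. TTTGAA or TTCGAA on either strand, the letters of the CHR element known from G2 and mitosis genes, stood in 3 of 47 (6.38%) against 15.4% of the coding genes. These are matches of letters in a window and not measured binding. The 4 printed genes were picked with the results known, so they are examples only. ORC6 and TIMELESS, without the letters, lie near opposite ends of the range of change given below. So do GINS3 and GINS1, which have them.

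Set against the fly reads, all 54 genes rose from 5 to 15 min of label, with folds from 1.57 for RPA1 to 3.88 for ORC6 and a median of 2.72. By edgeR's quasi-likelihood test with Benjamini-Hochberg adjustment over all genes, 98.4% of the genes tested and 98.5% of coding genes rose, and 0.0115% of the genes tested fell, so the count of 54 does not set the members apart. The median fold over all tested genes was 3.20, and 2.96 over protein-coding genes. By role, the median fold was 2.79 for licensing, 2.65 for helicase, 2.84 for origin firing, 2.64 for polymerase, 2.63 for clamp and loader, 2.29 for RPA, 2.52 for fork protection and 2.98 for chromatin genes. Without the second 15 min library 53 of the 54 rose, and RPA1 did not pass (log2 0.54, adjusted p = 0.0987).

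**Figure D1:**
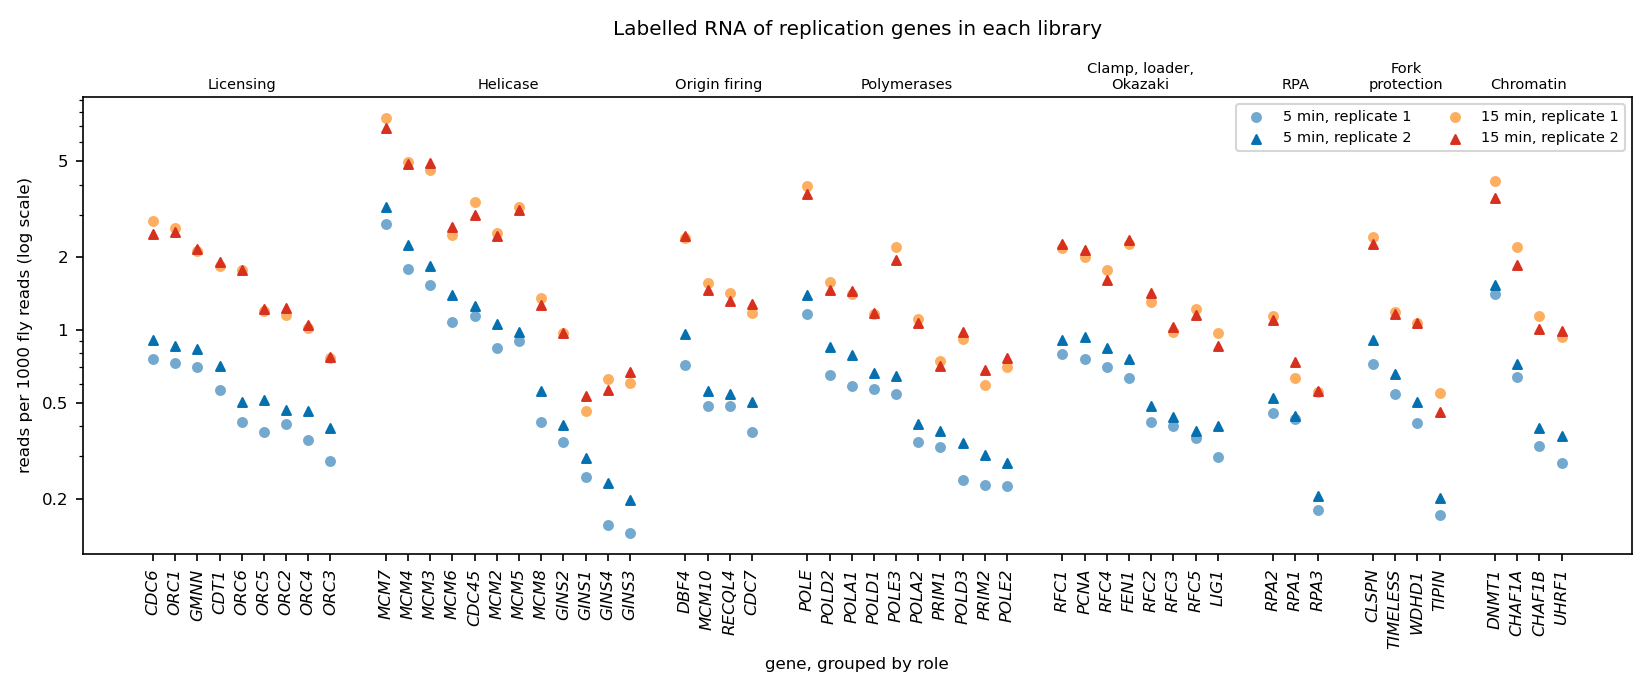
Reads per 1000 fly reads (log scale) for each of the 54 replication genes, grouped by role, with 1 point per library at 5 min and at 15 min of label. The 15 min points lie above the 5 min points of the same gene, from RPA1 with the lowest fold (1.57) to ORC6 with the highest (3.88).

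Levels can be compared between genes only per length, here as reads per kilobase of exonic sequence per 1000 fly reads. MCM7, a subunit of the MCM ring, had the highest level of the 54, at 0.681 ± 0.0785 after 5 min and 1.65 ± 0.114 after 15 min (SD, n = 2). PCNA, the sliding clamp, was second at 0.575 ± 0.0835 and 1.41 ± 0.0708, and the MCM7 and PCNA levels after 5 min differed by little more than these SDs. MCM3, also a ring subunit, followed at 0.463 ± 0.0598 and 1.31 ± 0.0603. CDC45, GMNN, FEN1, ORC1, MCM4 and MCM6 came next, in that order, and neighbours from FEN1 to MCM6 did not differ beyond their SDs after 5 min. After 15 min they did, at 0.938 ± 0.0278 for FEN1, 0.820 ± 0.0213 for ORC1, 0.704 ± 0.0101 for MCM4 and 0.627 ± 0.0318 for MCM6. The lowest levels were those of GINS4, at 0.0355 ± 0.00989 and 0.108 ± 0.00791, and GINS3, at 0.0335 ± 0.00748 and 0.125 ± 0.0098. The 6 ring genes held ranks 1 (MCM7) to 22 (MCM5) and the 4 GINS genes, whose products sit in the same helicase, ranks 31 (GINS2) to 54 (GINS4). Because labelled RNA can hold introns, the order was also taken per kilobase of the whole gene span. MCM7 stayed first, POLE3 moved to second, FEN1 to the third and PCNA to ninth. At the lower end PRIM2 moved to rank 54, GINS3 stayed at rank 53 and GINS4 moved up to rank 32. MCM7 lies at chr7:100092728-100101940 (hg38, GENCODE 29) and hosts the microRNA genes MIR25, MIR93 and MIR106B within it.

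The changes were also read on a pair of further scales. On the first, which keeps the fly reads as the standard, the counts were divided by fly reads and by minutes of label, so that no change means as much labelled RNA per minute at both label times. On this scale 9 of the 54 genes passed as lower after 15 min, where 8.99% of all tested genes and 12.8% of coding genes did. They were MCM6 and GINS1 (helicase), POLA1, PRIM1, POLD1 and POLD2 (polymerases), RFC4 (clamp loader), RPA1 and TIMELESS (fork protection). Their labelled RNA per minute was 0.525 times (RPA1) to 0.731 times (RFC4) that of the 5 min libraries. The edgeR adjusted p-values ran from 7.34e-06 for RPA1 to 0.0375 for RFC4. Of the 54 genes 0 passed as higher, where 11.3% of all tested genes and 7.75% of coding genes did, and 1 was higher at an unadjusted p under 0.05. DESeq2 called the same 9 lower and 0 higher. With a term for the replicate number in the edgeR model, 4 of the 9 passed (GINS1, POLD1, RPA1 and TIMELESS). The count moved with the libraries used. The count of lower genes fell, with the calls of these 9 lost, when either 15 min library was left out. It rose when either 5 min library was left out, and without the second 5 min library genes called higher appeared as well. Each fit with 1 library left out holds 1 sample at that label time and takes its spread from the 2 libraries of the other. Its count of calls therefore depends on which pair remains and cannot be set beside the 9. Without either 15 min library the log2 fold changes of the 9 genes stayed between -0.38 (RFC4) and -1.05 (RPA1). MCM6 was then at -0.48 and -0.58, against -0.53 with all libraries. Without either 5 min library the 9 ranged from -0.30 (POLA1) to -0.95 (RPA1). The human to fly read ratio, which sets this scale, was 4.84 and 5.84 after 5 min and 15.8 and 15.3 after 15 min.

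On the second, which does not use the fly reads, the share of each gene in the human labelled RNA was compared, with TMM scaling, and the values are CPM, which are read counts scaled to a common library size. Of the 54 genes 27 fell in share from 5 to 15 min, 1 rose and 26 did not pass. Among all tested genes 21.3% fell and 16.8% rose, and among coding genes 30.5% fell and 13.7% rose. The median log2 fold change of the members was -0.20, against 0.03 for all tested genes and -0.08 for coding genes. The point estimate was below 0 for 45 of the 54 (83.3%) and for 58.4% of the coding genes. Both 15 min libraries lay below both 5 min libraries for 38 members (33.0% of all tested genes) and above them for 6 (34.6%), and the label times overlapped for 10. With total counts in place of TMM, 18 members fell and 5 rose, which were ORC6, MCM5, GINS3, POLE3 and FEN1. Under every alternative run 17 members fell: ORC3, MCM4, MCM6, MCM7, GINS1, POLA1, PRIM1, POLD1, POLD2, PCNA, RFC3, RFC4, RPA1, RPA2, TIMELESS, WDHD1 and DNMT1.

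**Figure D2:**
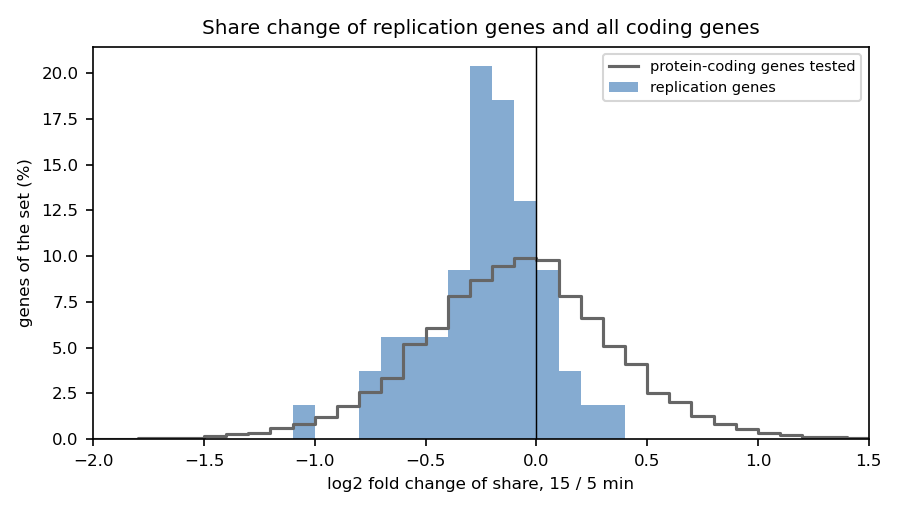
Distribution of the log2 fold change of share from 5 to 15 min, as the percentage of genes of each set per bin of 0.1, for the 54 replication genes (bars) and the protein-coding genes tested (line). The members' median is -0.20 and that of the coding genes -0.08, and RPA1 stands lowest among the members at -1.0.

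Among the licensing genes, 2 of 9 fell in share (ORC3 and ORC4) and ORC6 was the 1 that rose. The ORC4 call was lost with DESeq2 (adjusted p = 0.118) and with total counts in edgeR (0.0939). ORC6, the smallest ORC subunit, had 0.414 and 0.501 reads per 1000 fly reads after 5 min and 1.77 and 1.78 after 15 min, a 3.88-fold rise. Its share was 88.6 and 90.2 CPM after 5 min and 109 and 113 CPM after 15 min, with no overlap (log2 0.31 ± 0.0805 SE, edgeR adjusted p = 0.000664). The rise in share did not pass with DESeq2 (adjusted p = 0.0677). ORC3, another ORC subunit, had 0.287 and 0.393 reads per 1000 fly reads after 5 min and 0.769 and 0.777 after 15 min. In share ORC3 fell from 61.4 and 70.7 CPM to 47.2 and 49.3 CPM (log2 -0.46 ± 0.102, adjusted p = 4.73e-05). Within 1 complex, then, the ratio of ORC6 to ORC3 reads was 1.44 and 1.28 after 5 min and 2.30 and 2.29 after 15 min. The pair was picked as the highest and lowest fold of the 6 ORC genes.

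The CDT1 inhibitor and the loaders that work with ORC did not pass in share. GMNN, which encodes geminin, the inhibitor of CDT1, had the highest level per kilobase of this role and counted 0.702 and 0.836 reads per 1000 fly reads after 5 min and 2.12 and 2.17 after 15 min. Its share was 150 and 150 CPM and then 130 and 138 CPM, lower in both 15 min libraries, and it did not pass (log2 -0.17 ± 0.0719, adjusted p = 0.0536). CDC6, which joins ORC to load the ring, had a share change of 0.02 (adjusted p = 0.866), and CDT1, the partner that brings the ring, one of -0.09 (adjusted p = 0.368). For both genes the CPM of the label times overlapped. ORC1, the subunit known to cycle in abundance, was at 0.05 (adjusted p = 0.599).

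Of the helicase genes 9 of 12 fell in share, and MCM5, GINS3 and GINS4 were the 3 that did not pass. With total counts in place of TMM, MCM2, MCM3, MCM8, CDC45 and GINS2 did not pass, and 4 of the 12 (MCM4, MCM6, MCM7 and GINS1) fell under every alternative run. Of the ring genes MCM2 to MCM7, 5 of 6 fell in share. MCM6 had 1.08 and 1.40 reads per 1000 fly reads after 5 min and 2.49 and 2.67 after 15 min, a 2.08-fold rise and the smallest in the ring. The MCM6 share dropped from 231 and 252 CPM to 153 and 170 CPM (log2 -0.59 ± 0.0663, adjusted p = 3.34e-17). MCM7 had 2.74 and 3.23 reads per 1000 fly reads after 5 min and 7.59 and 6.88 after 15 min, with a share of 588 and 581 CPM and then 466 and 437 CPM. MCM5 had the largest fold in the ring, 3.41, and its share was 193 and 176 CPM and then 200 and 201 CPM (log2 0.12, adjusted p = 0.161). The MCM5 to MCM6 read ratio was 0.838 and 0.699 after 5 min and 1.31 and 1.18 after 15 min. Per exonic kilobase and 1000 fly reads the MCM6 level was above that of MCM5 at both label times. It was 0.301 ± 0.0556 against 0.128 ± 0.00744 after 5 min and 0.627 ± 0.0318 against 0.437 ± 0.00884 after 15 min (SD, n = 2). Per kilobase of gene span the order was reversed, with 0.00571 for MCM6 and 0.00793 for MCM5 per minute of label (mean of 4 libraries). The order of these 2 genes therefore depends on the length used.

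GINS, the complex of 4 small subunits that joins CDC45 to the ring, showed the same kind of spread. GINS1 had 0.247 and 0.295 reads per 1000 fly reads after 5 min and 0.464 and 0.531 after 15 min, a 1.84-fold rise. Its share fell from 53 and 53.1 CPM to 28.5 and 33.7 CPM (log2 -0.77 ± 0.119, adjusted p = 1.2e-09). GINS3 had 0.144 and 0.198 reads per 1000 fly reads after 5 min and 0.602 and 0.673 after 15 min, a 3.74-fold rise. The share of GINS3 was 30.8 and 35.6 CPM and then 37.0 and 42.7 CPM, above in both 15 min libraries, and did not pass (log2 0.26 ± 0.126, adjusted p = 0.091). GINS3 is among the members with the fewest reads, which limits its precision. CDC45, the partner of GINS in the helicase, was at a smaller change (log2 -0.24 ± 0.065, adjusted p = 0.00121).

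**Figure D3:**
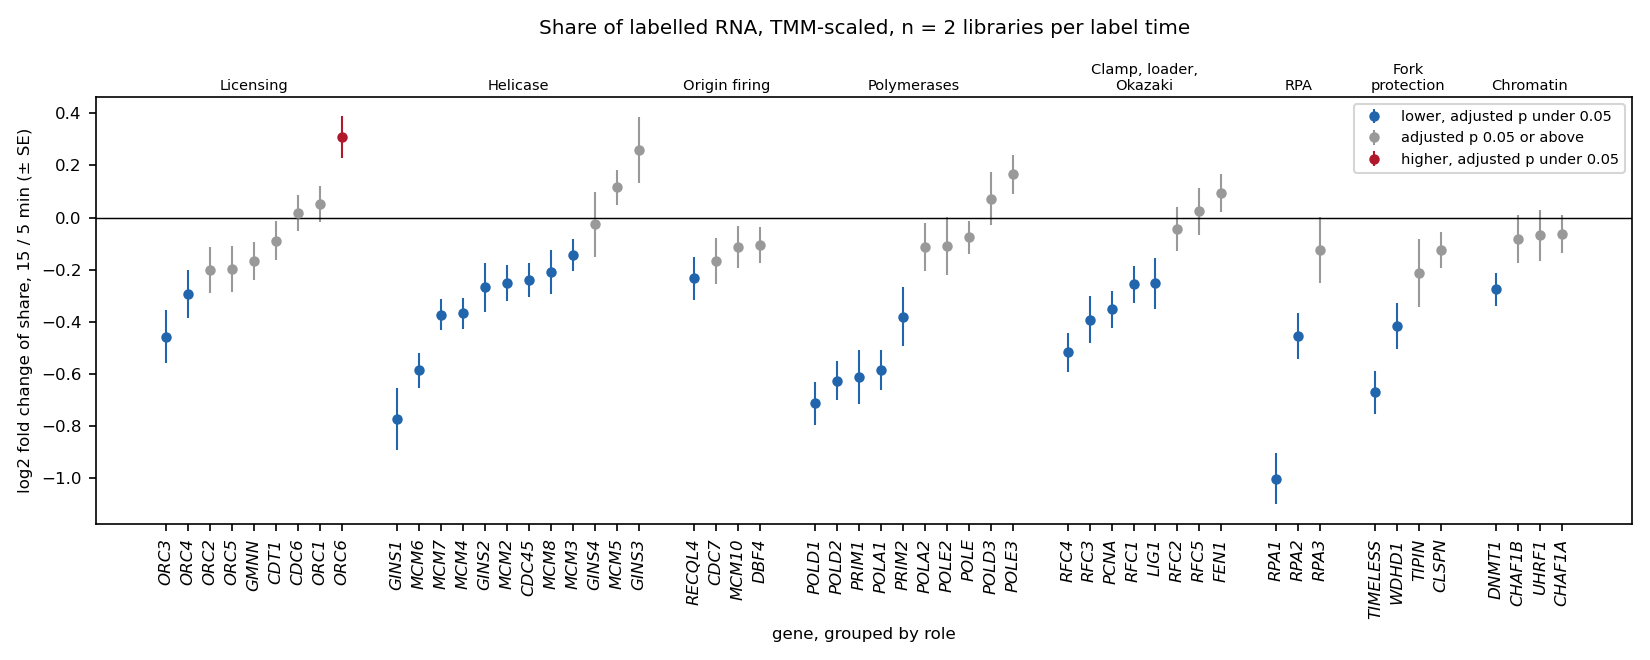
Log2 fold change of share from 5 to 15 min with its SE for the 54 genes, grouped by role and coloured by the edgeR call at an adjusted p under 0.05. Helicase genes include 9 falls of 12, origin firing genes 1 of 4, and ORC6 is the single gene called higher.

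Of the 4 origin firing genes, RECQL4, a helicase-like initiation factor, was the 1 whose share fell. RECQL4 had 0.485 and 0.541 reads per 1000 fly reads after 5 min and 1.42 and 1.32 after 15 min, and its share was 104 and 97.4 CPM and then 87.1 and 84.0 CPM (log2 -0.23 ± 0.0824, adjusted p = 0.0155). The call was lost under some alternatives, where the adjusted p ran up to 0.216. DBF4, the regulatory subunit of the CDC7 kinase, had 0.715 and 0.962 reads per 1000 fly reads and then 2.40 and 2.46. Its share, 153 and 173 CPM and then 147 and 156 CPM, overlapped between label times (log2 -0.11, adjusted p = 0.231). CDC7 itself (log2 -0.17, adjusted p = 0.119) and MCM10, which helps to activate the helicase (log2 -0.11, adjusted p = 0.27), did not pass.

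Among the polymerase genes 5 of 10 fell in share, and these lay in polymerase alpha-primase (POLA1, PRIM1 and PRIM2) and in polymerase delta (POLD1 and POLD2). The PRIM2 call was lost with DESeq2 (adjusted p = 0.101). POLA1, the catalytic subunit of the priming polymerase, had 0.584 and 0.786 reads per 1000 fly reads after 5 min and 1.41 and 1.45 after 15 min. In share POLA1 fell from 125 and 141 CPM to 86.4 and 91.8 CPM (log2 -0.58 ± 0.0777, adjusted p = 1.14e-12). PRIM1, the catalytic primase subunit, had 0.328 and 0.383 reads per 1000 fly reads and then 0.747 and 0.712, and its share fell from 70.2 and 69.0 CPM to 45.9 and 45.2 CPM (log2 -0.61 ± 0.102, adjusted p = 2.22e-08). POLA2, the B subunit of the same complex, was at -0.11 (adjusted p = 0.35). POLA2 lies almost wholly within the readthrough gene AP000944.2 on its own strand, over 43662 bases. AP000944.2 is not among the gene identifiers counted, so no reads were assigned to it. Its bearing on the POLA2 count was not tested.

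POLD1, the catalytic subunit of polymerase delta, had 0.570 and 0.661 reads per 1000 fly reads after 5 min and 1.17 and 1.18 after 15 min. Its share fell from 122 and 119 CPM to 71.9 and 75.1 CPM (log2 -0.71 ± 0.0819, adjusted p = 1.13e-16). POLD2, the accessory subunit next to it, had 0.652 and 0.847 and then 1.58 and 1.46 reads per 1000 fly reads, and a share of 140 and 152 CPM and then 97.0 and 92.6 CPM (log2 -0.62 ± 0.0759). POLD3, a further accessory subunit, overlapped between label times at 51.3 and 61.1 CPM and then 56.3 and 62.4 CPM (log2 0.07, adjusted p = 0.604). The 3 genes of polymerase epsilon did not pass in either direction. POLE3, a histone-fold subunit of polymerase epsilon that also serves in chromatin remodelling, had 0.541 and 0.647 reads per 1000 fly reads and then 2.22 and 1.95. Its share was 116 and 116 CPM and then 136 and 124 CPM (log2 0.17 ± 0.075, adjusted p = 0.0667). The adjusted p of POLE3 ran from 0.00156 to 0.56 over the alternatives.

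Of the clamp, loader and Okazaki fragment genes 5 of 8 fell in share: PCNA, RFC1, RFC3, RFC4 and LIG1, the ligase that seals the fragments. The calls of RFC1 and LIG1 were lost with DESeq2 (adjusted p = 0.0548 and 0.222) and with total counts in edgeR (0.0747 and 0.231). PCNA had 0.759 and 0.933 reads per 1000 fly reads after 5 min and 2.00 and 2.15 after 15 min, and its share fell from 163 and 168 CPM to 123 and 136 CPM (log2 -0.35 ± 0.0713, adjusted p = 6.58e-06). RFC4, a small subunit of the clamp loader, had 0.702 and 0.841 reads per 1000 fly reads and then 1.77 and 1.61. The RFC4 share fell from 150 and 151 CPM to 109 and 102 CPM (log2 -0.52 ± 0.0744, adjusted p = 6.97e-11). FEN1, the nuclease that removes primer flaps, had 0.633 and 0.756 reads per 1000 fly reads and then 2.27 and 2.37. Its share of 136 and 136 CPM and then 140 and 150 CPM did not pass (log2 0.09, adjusted p = 0.312). FEN1 at chr11:61792637-61797244 (hg38, GENCODE 29) lies within FADS2 over 4265 bases on the same strand, and RFC4 shares 21 bases with EIF4A2, which had 29679 reads in all. No source used here says how reads in such overlaps were counted, so these values are uncertain. The limit is wider than these genes: 17 of the 54 members (31.5%) overlap a coding gene, against 38.3% of the coding genes tested. Among them are PRIM1, with NACA over 33 bases and with AC117378.1 over 9940 bases, and DNMT1, with S1PR2 over 9854 bases, each on the same strand. AC117378.1 is not among the gene identifiers counted.

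RPA1 and RPA2 fell in share and RPA3 did not pass. RPA1, the large subunit that binds single-stranded DNA, had 0.428 and 0.442 reads per 1000 fly reads after 5 min and 0.631 and 0.738 after 15 min, the smallest rise of all 54 genes. Its share fell from 91.7 and 79.5 CPM to 38.7 and 46.8 CPM, with a wide gap between the label times (log2 -1.0 ± 0.0983, adjusted p = 1.38e-22). RPA2, the middle subunit that is phosphorylated at stalled forks, had 0.455 and 0.521 and then 1.14 and 1.10 reads per 1000 fly reads. The RPA2 share fell from 97.4 and 93.8 CPM to 69.8 and 69.8 CPM (log2 -0.45 ± 0.0866, adjusted p = 1.51e-06). RPA3, the small subunit, had 0.179 and 0.206 and then 0.555 and 0.557 reads per 1000 fly reads, and 38.4 and 37.2 CPM and then 34.1 and 35.3 CPM (log2 -0.12, adjusted p = 0.468). RPA3 overlaps UMAD1 on the opposite strand over 77897 bases, so its count is uncertain as well. For the trimer as a whole, the summed reads were 0.0220% and 0.0200% of human reads after 5 min and 0.0146% and 0.0157% after 15 min.

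**Figure D4:**
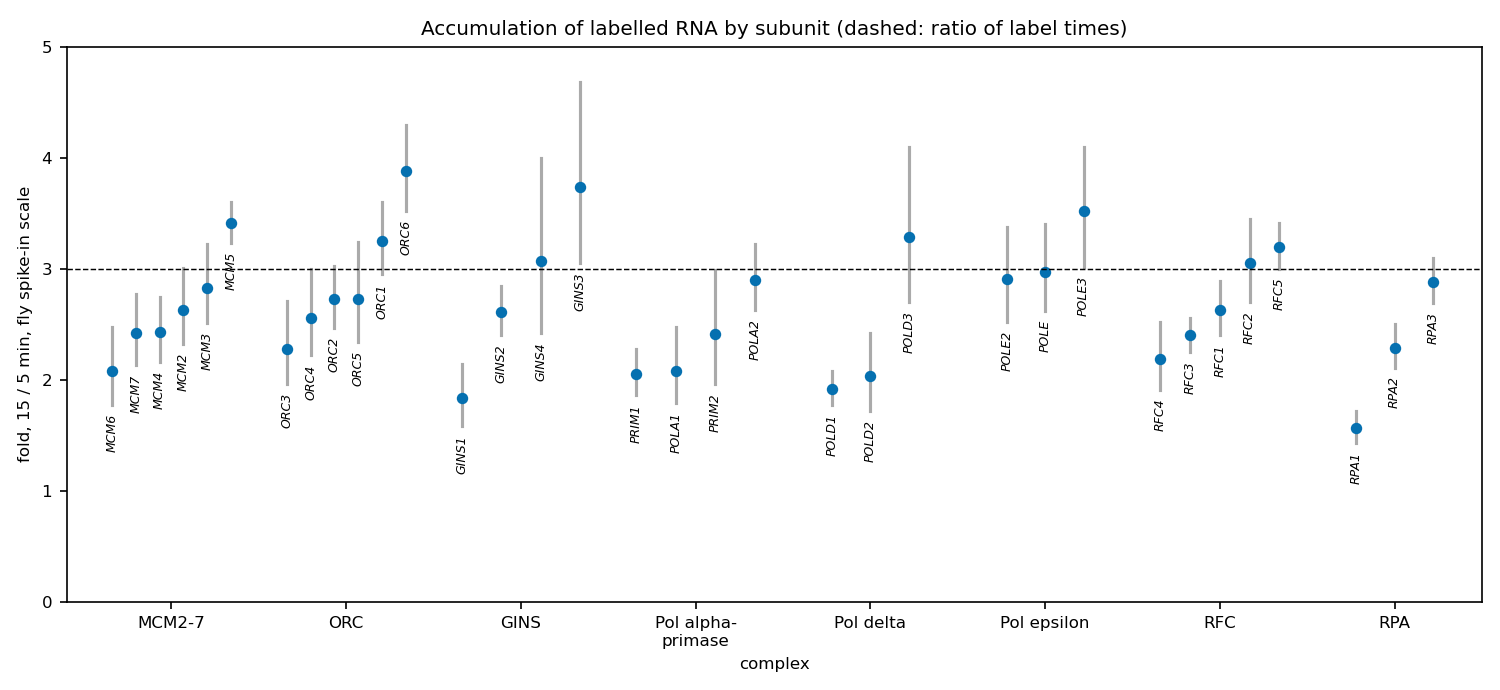
Fold of labelled RNA from 5 to 15 min on the fly spike-in scale for each subunit of 8 complexes. Points are the edgeR estimates, grey lines span the 4 ratios of single libraries, and the dashed line is the 3-fold ratio of label times. The spread within a complex runs from 2.91 to 3.52 in polymerase epsilon and from 1.84 to 3.74 in GINS.

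Of the fork protection genes TIMELESS and WDHD1 fell in share. TIMELESS, which forms the fork protection complex with TIPIN, had 0.543 and 0.656 reads per 1000 fly reads after 5 min and 1.19 and 1.17 after 15 min. Its share fell from 116 and 118 CPM to 72.9 and 74.5 CPM (log2 -0.67 ± 0.0823, adjusted p = 1.16e-14). The partner gene TIPIN did not pass (log2 -0.21 ± 0.13, adjusted p = 0.189), though its 4 values of 36.5 and 36.3 CPM and then 33.7 and 28.9 CPM did not overlap. WDHD1, which links polymerase alpha to the helicase, was at -0.41 ± 0.0887 (adjusted p = 2.14e-05). CLSPN, the mediator of checkpoint signalling at forks, had 0.726 and 0.913 and then 2.44 and 2.27 reads per 1000 fly reads, and 155 and 164 CPM and then 150 and 144 CPM (log2 -0.12, adjusted p = 0.155).

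Of the chromatin genes 1 of 4 fell in share, DNMT1, the methyltransferase that copies DNA methylation onto the new strand. DNMT1 had 1.41 and 1.54 reads per 1000 fly reads after 5 min and 4.16 and 3.53 after 15 min. The DNMT1 share fell from 303 and 278 CPM to 256 and 224 CPM (log2 -0.27 ± 0.0629, adjusted p = 8.1e-05). CHAF1A, the large subunit of the histone chaperone CAF-1, had 0.641 and 0.720 and then 2.22 and 1.86 reads per 1000 fly reads. Its share overlapped between label times at 137 and 130 CPM and then 137 and 118 CPM (log2 -0.06, adjusted p = 0.526). CHAF1B (log2 -0.08, adjusted p = 0.523) and UHRF1, which guides DNMT1 to hemimethylated DNA (log2 -0.07, adjusted p = 0.623), did not pass.

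The roles were compared through the ratio of their summed reads in each library, 6 pairs in all among licensing, helicase, polymerase and clamp genes. Helicase genes gave 2.33 and 2.26 times the reads of polymerase genes after 5 min and 2.28 and 2.30 times after 15 min, which overlap (log2 change 0.00, exact two-sided permutation p = 1). Licensing genes gave 0.405 and 0.412 times the reads of helicase genes after 5 min and 0.466 and 0.474 times after 15 min. Against polymerase genes licensing gave 0.942 and 0.934 and then 1.06 and 1.09, and against clamp genes 1.05 and 1.10 and then 1.20 and 1.18. These 3 licensing ratios were higher in both 15 min libraries, by log2 0.20, 0.20 and 0.15, each with an exact permutation p = 0.33 (adjusted 0.5). That is the smallest p that 6 arrangements of 4 libraries allow, so none of the pairs could pass. Helicase against clamp genes changed by log2 -0.06 (exact p = 0.33) and polymerase against clamp genes by -0.05 (exact p = 0.667). Summed reads lean on the most abundant genes. With the median log2 CPM of each role in their place, the 3 licensing pairs moved by 0.52 (helicase), 0.68 (polymerase) and 0.50 (clamp). Helicase against polymerase then moved by 0.16, helicase against clamp by -0.02 and polymerase against clamp by -0.18. In both 15 min libraries and the first 5 min library the middle licensing gene was ORC6, the member called higher in share. The median log2 fold change of share was -0.17 for licensing, -0.24 for helicase, -0.25 for polymerase and -0.25 for clamp genes. The moves of 0.50 to 0.68 therefore do not stand for the licensing genes as a group.

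Folds also spread within complexes. The highest and lowest folds on the spike-in scale were 3.41 (MCM5) and 2.08 (MCM6) in the ring, 2.90 (POLA2) and 2.05 (PRIM1) in polymerase alpha-primase, and 3.29 (POLD3) and 1.92 (POLD1) in polymerase delta. In the clamp loader they were 3.20 (RFC5) and 2.19 (RFC4), and in RPA 2.88 (RPA3) and 1.57 (RPA1). These pairs were picked as extremes, so their differences are given as a description with no test.

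The change in share was set beside other features of the genes. Members with the E2F letters in their window fell in 13 of 24 cases, with a median of -0.21, and those without in 11 of 23, with a median of -0.20. Across the 54 genes, which share the same 4 libraries, the log2 fold change of share had a Pearson r of -0.21 (Spearman -0.19) with log2 gene span. The r was 0.01 (-0.02) with exonic length and 0.02 (0.02) with reads per kilobase. Members had a median span of 35.3 kb, from 3.44 kb for POLE3 to 332 kb for PRIM2, and coding genes one of 31.0 kb. These are descriptions across genes, which are not independent replicates.

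A divergent coding neighbour whose start lay within 1000 bases was found for 15 of the 54 members (27.8%) and for 10.3% of the coding genes tested. Member and neighbour could move apart: ORC6 rose in share while VPS35, a retromer gene whose start lies 125 bases away, fell (log2 -0.49, adjusted p = 3.23e-10). MCM4 and PRKDC, the gene of the DNA-dependent protein kinase, have starts 2 bases apart, and both fell, PRKDC by 1.15 and MCM4 by 0.37 on the log2 scale. CDC45 fell while UFD1 at 244 bases rose (log2 0.36), and RECQL4 fell while LRRC14 at 147 bases rose (log2 0.47). The member's call in these 3 opposite pairs was lost under an alternative: ORC6 with DESeq2, CDC45 with total counts (adjusted p = 0.0903) and without the second 15 min library (0.0505), and RECQL4 with total counts (0.216). Of the 15 pairs, 1 fell together, 3 moved in opposite directions by the edgeR test, and in the others at least 1 gene did not pass or was not tested.

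The authors also deposited 1 rate per gene for these cells, with no unit and no replicate, and 53 of the 54 genes have one (UHRF1 is not listed). The median rate of the members was 0.028, against 0.0114 over the 11777 genes with a rate. Of the 53, 44 lay above that overall median and 15 in the top 10%. MCM7 had a rate of 0.21 (percentile 98.7), MCM3 0.111 (97.2) and GMNN, the geminin gene, 0.104 (97.0). By role the median rate was 0.046 for licensing, 0.0415 for helicase, 0.0378 for origin firing, 0.0216 for polymerase, 0.0291 for clamp and loader and 0.01 for RPA genes. Across the 53 genes the log2 rate followed the log2 reads per kilobase, with a Pearson r of 0.63 and a Spearman rho of 0.82. Both measures may come from the same libraries, so this is no independent check.

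FEN1 departed most from that relation. It was sixth of 54 in reads per kilobase, with 0.280 ± 0.0351 after 5 min and 0.938 ± 0.0278 after 15 min (SD, n = 2), but its rate was 0.000451, at percentile 5.84 of all genes. Without FEN1 the r was 0.86 and rho 0.91 over 52 genes. The next lowest were RPA3 at 0.0016 (percentile 14.3) and GINS3 at 0.00238 (18.6), which were also among the lowest in reads per kilobase. Their rates were nonetheless below those of members with fewer reads per exonic kilobase and minute. RPA3 had 0.0117 such reads, while LIG1 had 0.00996 and a rate of 0.01. GINS3 had 0.00751, while GINS4 had 0.00716 and a rate of 0.00606. FEN1, RPA3 and POLA2 are the members that lie mostly inside another coding gene's span. The rate of POLA2 was 0.018 (percentile 63.9). Its host AP000944.2, unlike FADS2 and UMAD1, is not among the gene identifiers counted. FADS2 lies on the same strand as FEN1 and UMAD1 on the strand opposite to RPA3, so each of these overlaps is of a different kind. The part of such overlaps in the rates was not tested.

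**Figure D5:**
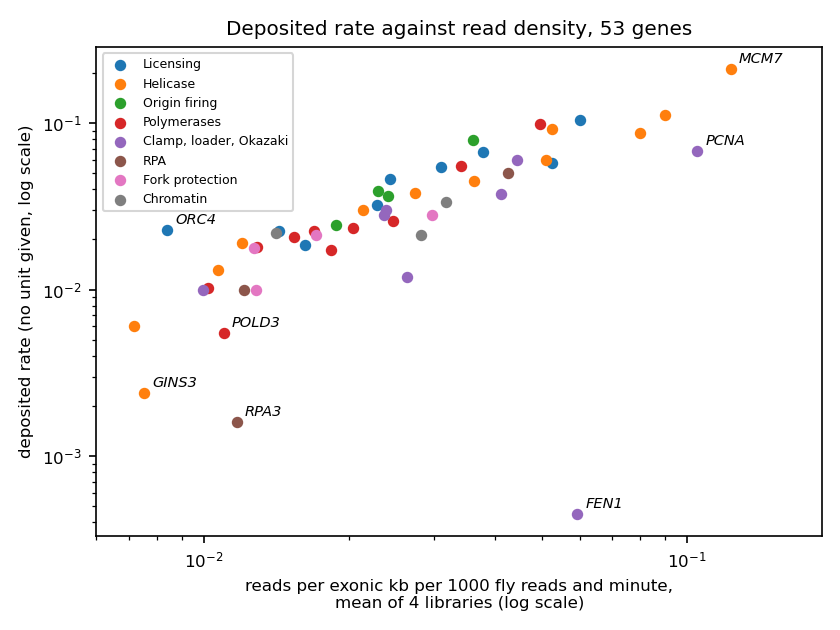
Deposited rate (no unit given, log scale) against reads per exonic kilobase per 1000 fly reads and minute of label (log scale, mean of 4 libraries) for 53 replication genes, coloured by role. The points follow a rising band with MCM7 at the upper end, and FEN1 lies far below it at 0.000451.

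Beyond the fork itself, 50 other replication genes were taken from a list of regulators, nucleotide synthesis enzymes and accessory factors. This list too was chosen with earlier results of these data known. All 50 rose on the spike-in scale, where 98.4% of all tested genes did. In share 23 fell, 7 rose and 20 did not pass, with a median of -0.19. Of all tested genes 21.3% fell and 16.8% rose, and of coding genes 30.5% fell and 13.7% rose. The 7 that rose were MCM9, LRWD1, TICRR, E2F2, E2F3, E2F8 and TRAIP, with log2 changes from 0.17 (MCM9) to 0.62 (TRAIP). RRM1, the large subunit of ribonucleotide reductase, had 164 and 168 CPM after 5 min and 94.3 and 101 CPM after 15 min (log2 -0.77 ± 0.0743, adjusted p = 3.85e-23). TK1, the thymidine kinase of S phase, fell from 89.5 and 103 CPM to 55.9 and 59.1 CPM (log2 -0.75 ± 0.0899, adjusted p = 2.5e-15). Among the most abundant, RIF1, a regulator of replication timing, fell by 0.22 on the log2 scale from a mean of 1040 to 888 CPM. NASP, a histone chaperone, was at 568 and 581 CPM (log2 0.03, adjusted p = 0.712), and DTL, which directs the destruction of CDT1, was at 313 and 312 CPM. Without the second 5 min library 15 of the 50 fell and 2 rose, and without the first 15 min library 3 rose.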

How the data were processed

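Labelled RNA of untreated K562 cells was read in 4 TT-seq libraries, 2 per label time, grouped by the label time in the labels. The submitters' processing notes name STAR 2.7, featureCounts, Subread 2.0.1, bcl2fastq and edgeR as tools, with hg38 and dm6 as builds. No source used here gives their order, the feature counted or the strand setting. Raw read counts for each human and each fly gene were deposited by the authors as whole numbers. The authors also deposited 1 rate per gene, used here as a score, since per the file headers it has no unit, and the libraries behind it are not given.

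GENCODE 29 gave symbols and positions for 56590 of 60279 identifiers and for 17101 of 17322 genes tested. Counts were tested with edgeR 4.0.16 in R 4.3.3 (filterByExpr with a minimum count of 10, robust quasi-likelihood fit, label time as the only term), with Benjamini-Hochberg adjustment over all genes tested and a threshold of 0.05. Library sizes were the fly totals, the fly totals times minutes of label, or the human totals with TMM factors. The models were tested on simulated data with known changes. Levels are reads per 1000 fly reads, and role ratios were compared by exact permutation tests. Promoter windows came from RefSeq (GRCh38.p14).

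Members, roles and lists were chosen with earlier results of these data known. Full values were given, in each role, for the member with the highest level per kilobase, those with the highest and lowest fold, and each with a called share change of at least 0.5 on the log2 scale, and of the other replication genes for the 3 most abundant and the 2 with the smallest p. Libraries of a label time were farther apart than read sampling alone gives (chi-square over genes divided by its degrees of freedom was 1.61 and 1.75) and were kept apart. The alternatives were DESeq2 1.42.0, other scalings, no filter on low counts, a replicate term, each library left out, gene span as length and role medians. Precision is limited by 129 to 2597 reads per member and library and by 2 libraries per label time. Of the marker lists, 1 item is not reported here.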

Additional observations from a re-analysis of the deposited data

How the results depend on the processing

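The rise of the 54 genes on the spike-in scale gave 53 to 54 under all alternatives. The count lower per minute of label was 8 without the filter, 4 with a replicate block (GINS1, POLD1, RPA1 and TIMELESS, with MCM6 at an edgeR adjusted p of 0.0867), and 0 to 31 when 1 library was left out. The count higher per minute was 0 to 8 when 1 library was left out and 0 otherwise. The count lower in share ran from 18 (total counts) to 30. The count higher in share, 1, became 0 with DESeq2, 2 with a replicate block (ORC6 and POLE3) and 5 with total counts, which moved the median of all genes from 0.03 to 0.13. The block used the labels' replicate numbers, which did not pair the libraries (correlation of deviations 0.0487). With it 54 genes rose on the spike-in scale and 30 fell in share. Of the other replication genes 15 to 23 fell and 2 to 6 rose in share when 1 library was left out. Helicase against polymerase genes moved by 0.16 with role medians, and by -0.02 to 0.02 when 1 library was left out (0.00 without the first 15 min library). The members' median level per minute was 0.0237 reads per exonic kilobase and 0.00311 per kilobase of span. Of the members' calls in share, DESeq2 lost 9, and total counts lost 9 and gained 4. GMNN and POLE3 passed with the replicate block (adjusted p = 0.025 and 0.0368), GMNN also with DESeq2 size factors (0.0422) and without the second 15 min library (0.042), and POLE3 with total counts (0.00156).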
